A study of Mus musculus with 2 samples.

Results

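Small nucleolar RNAs (snoRNAs) and small Cajal body RNAs (scaRNAs) were examined in left cerebral cortex by total RNA-seq. The tissue came from female mice of strain B6CASTF1/J at 14 days of age. Members were the genes of transcript biotype snoRNA or scaRNA with an expected count of 10 or more in the gene tables of both libraries, where the expected count is the number of reads that the authors' quantification assigned to a gene. Of 1558 genes annotated with these biotypes among 55536 genes in all, 60 met the rule, 50 of 1507 of biotype snoRNA and 10 of 51 of biotype scaRNA. As the counts themselves chose the members, their levels are a description.

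The series holds 2 libraries, replicate 2 and replicate 1, which are biological replicates of a single group with the same strain, sex, age and tissue. It has no treatment, genotype or control group. Per the labels, ERCC spike-ins made for stranded, ribosomal RNA-reduced libraries were added. Both libraries carry the same donor entry and a description that speaks of 3 females, and the labels do not say whether mice were pooled. The libraries held 32013997 counts in genes in replicate 2 and 33362704 in replicate 1.

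SnoRNAs work in the nucleolus as guides in RNA-protein particles. Box C/D snoRNAs direct the methyltransferase fibrillarin to riboses of ribosomal RNA, and box H/ACA snoRNAs direct the pseudouridine synthase dyskerin to uridines. A few, among them U3 and Snora73, serve the cutting of the ribosomal RNA precursor instead of its modification. ScaRNAs guide the same reactions on spliceosomal RNAs in the Cajal body. In mammals most are cut out of introns of host genes, and brain is known for imprinted clusters of many short box C/D snoRNAs.

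The sequences below are GENCODE M21 transcripts on mm10, with capitals for the features named beside each set. The classes of members used below were taken from biotype, symbol or RefSeq name and not from these sequences. Snord17, which guides methylation of large-subunit ribosomal RNA, lies at chr2:144265979-144266216 on the minus strand in an intron of Snx5. Scarna6, at chr1:87784556-87784820, and Gm25395, at chr1:87776938-87777209, both lie on the plus strand in introns of Atg16l1. Capitals mark the letters TGATGA within the first 20 bases and CTGA within the last 20, the C and D boxes.
Snord17: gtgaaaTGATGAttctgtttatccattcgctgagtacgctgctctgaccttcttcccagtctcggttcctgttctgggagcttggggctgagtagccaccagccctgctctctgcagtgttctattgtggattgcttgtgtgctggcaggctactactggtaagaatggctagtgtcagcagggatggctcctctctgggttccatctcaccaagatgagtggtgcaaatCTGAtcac
Scarna6: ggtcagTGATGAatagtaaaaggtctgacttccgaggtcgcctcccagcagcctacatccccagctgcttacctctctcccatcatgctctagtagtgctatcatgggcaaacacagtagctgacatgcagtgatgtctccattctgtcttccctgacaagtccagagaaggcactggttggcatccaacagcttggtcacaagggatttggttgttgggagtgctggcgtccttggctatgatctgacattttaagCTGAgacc
Gm25395: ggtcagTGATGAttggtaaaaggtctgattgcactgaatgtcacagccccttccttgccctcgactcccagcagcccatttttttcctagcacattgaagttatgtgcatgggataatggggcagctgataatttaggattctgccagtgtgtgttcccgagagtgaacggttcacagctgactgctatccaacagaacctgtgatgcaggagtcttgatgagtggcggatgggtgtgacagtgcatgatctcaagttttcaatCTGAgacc

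Scarna13, known from human cells to carry pseudouridine guides for spliceosomal RNA, lies at chr12:105031075-105031349 on the minus strand in an intron of Snhg10. Gm22442, a gene of scaRNA biotype that the annotation gives no other name, lies at chr11:69350518-69350661 on the minus strand in an intron of Chd3. Capitals mark the letters ACA that start 6 bases from the 3′ end, the box of H/ACA RNAs.
Scarna13: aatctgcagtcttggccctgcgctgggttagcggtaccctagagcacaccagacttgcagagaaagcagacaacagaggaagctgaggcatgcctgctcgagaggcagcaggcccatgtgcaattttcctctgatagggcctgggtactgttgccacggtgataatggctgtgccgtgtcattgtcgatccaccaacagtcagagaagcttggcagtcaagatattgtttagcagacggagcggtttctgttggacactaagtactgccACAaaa
Gm22442: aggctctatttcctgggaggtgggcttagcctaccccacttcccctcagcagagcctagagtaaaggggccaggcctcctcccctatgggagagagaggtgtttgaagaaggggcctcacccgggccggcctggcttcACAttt

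U3 is given by Rnu3a, at chr10:40258467-40258679 on the plus strand outside other genes, and by the Rnu3b genes. The Rnu3b1 entry of 216 nucleotides (nt) lies at chr11:87443237-87443452 on the plus strand in an intron of Tex14. The capital marks its last base. A second Rnu3b1 entry of 215 nt starts at the same base and lacks that last base, and the sequences of Rnu3b2, Rnu3b3 and Rnu3b4 are identical to these entries at each length.
Rnu3b1: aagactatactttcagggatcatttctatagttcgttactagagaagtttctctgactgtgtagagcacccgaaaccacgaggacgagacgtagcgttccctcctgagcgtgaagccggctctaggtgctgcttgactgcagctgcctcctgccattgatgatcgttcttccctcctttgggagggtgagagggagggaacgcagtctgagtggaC
Rnu3a: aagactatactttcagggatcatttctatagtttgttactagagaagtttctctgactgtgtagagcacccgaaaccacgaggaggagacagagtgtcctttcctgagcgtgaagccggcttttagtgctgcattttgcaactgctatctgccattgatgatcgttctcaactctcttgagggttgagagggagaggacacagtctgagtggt

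Snora73b, at chr4:132352322-132352526, and Snora73a, at chr4:132352775-132352979, lie on the minus strand within Rcc1 and its overlapping gene Snhg3. Capitals in Snora73a mark the 7 positions at which it differs from Snora73b.
Snora73b: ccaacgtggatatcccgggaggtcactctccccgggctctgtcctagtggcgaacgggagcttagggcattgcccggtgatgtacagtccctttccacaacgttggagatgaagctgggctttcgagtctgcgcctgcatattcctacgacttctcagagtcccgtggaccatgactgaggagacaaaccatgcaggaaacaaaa
Snora73a: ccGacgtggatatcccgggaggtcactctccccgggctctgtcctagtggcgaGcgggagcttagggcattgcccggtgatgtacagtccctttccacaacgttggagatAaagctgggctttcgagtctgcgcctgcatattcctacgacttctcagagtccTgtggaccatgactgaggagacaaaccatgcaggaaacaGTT

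Among the members known by a number only, 4 genes of 144 nt on different hosts form a family. Gm22988 overlaps an exon of Eif4a1 at chr11:69669635-69669778 on the minus strand. Gm25291 lies in Sec24a at chr11:51737779-51737922 on the minus strand, Gm24727 in Gsr at chr8:33691801-33691944 on the plus strand and Gm25117 in Nap1l1 at chr10:111481493-111481636 on the plus strand, each in an intron. Capitals mark positions that differ from Gm22988, which number 4 in Gm25291, 9 in Gm24727 and 13 in Gm25117.
Gm22988: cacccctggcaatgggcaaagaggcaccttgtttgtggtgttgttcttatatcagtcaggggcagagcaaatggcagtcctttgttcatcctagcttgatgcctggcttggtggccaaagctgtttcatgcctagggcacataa
Gm25291: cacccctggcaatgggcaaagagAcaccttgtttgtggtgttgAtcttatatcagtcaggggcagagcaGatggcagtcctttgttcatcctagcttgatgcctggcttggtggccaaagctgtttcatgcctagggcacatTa
Gm24727: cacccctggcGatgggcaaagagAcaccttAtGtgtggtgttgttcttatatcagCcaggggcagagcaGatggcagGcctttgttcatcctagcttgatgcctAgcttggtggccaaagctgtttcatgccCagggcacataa
Gm25117: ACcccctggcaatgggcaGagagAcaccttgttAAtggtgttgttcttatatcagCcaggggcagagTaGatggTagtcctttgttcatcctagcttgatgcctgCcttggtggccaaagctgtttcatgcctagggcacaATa

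Annotated length set which genes could be counted. The tables give an effective length that is 99 nt shorter than the annotated length and 0 for transcripts under 100 nt. Of the 1558 genes, 462 were under 100 nt, and all of them had an effective length of 0 and no count in either library. Their 0 is a limit of the quantification and says nothing about their level. Of 237 genes of 100 to under 126 nt, 11 had any count and the highest count was 6.5, so none was a member. Members made up 34 of 794 genes of 126 to under 150 nt (4.28%), 5 of 26 genes of 150 to under 200 nt (19.2%) and 21 of 39 genes of 200 nt or more (53.9%).

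**Figure D1:**
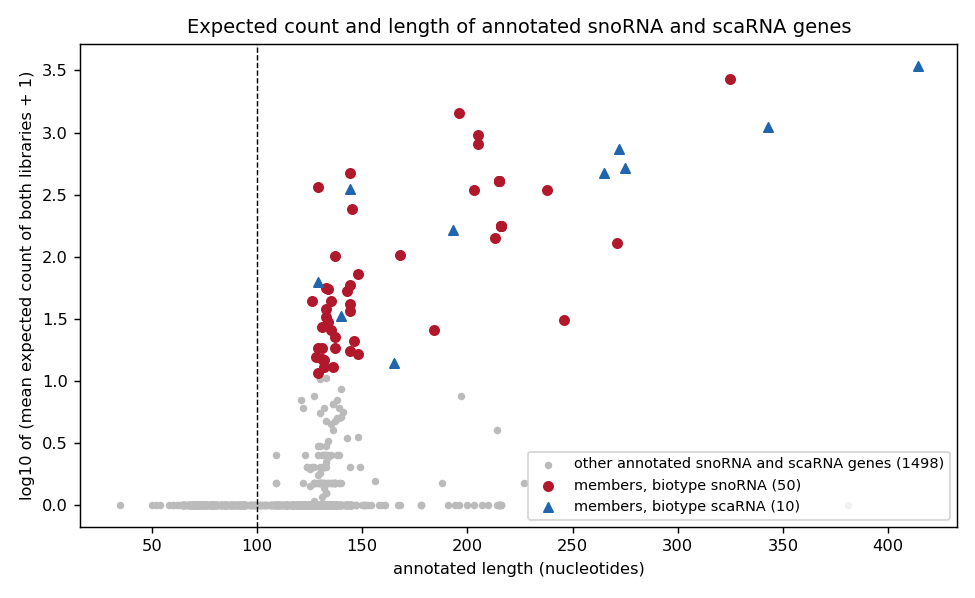
Annotated length in nucleotides against the log10 of the mean expected count of both libraries plus 1, for all 1558 annotated snoRNA and scaRNA genes. The 60 members are in colour by biotype and the dashed line is at 100 nt, below which all 462 genes were at 0.

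The cutoff fell mainly on box C/D snoRNAs. Of 98 genes with a Snord symbol, 87 were under 100 nt, against 0 of 42 genes with a Snora symbol. The imprinted brain snoRNAs were therefore not measured here. The 17 Snord116 genes are 94 nt long, Snord64 is 67 nt and Snord107 is 70 nt, and all were at 0. The same held for the 208 snoRNA genes of 69 to 94 nt inside Snhg14, the host of the Prader-Willi region, and for the 13 of 71 to 75 nt inside Rian. Of the processing snoRNAs, Snord118 (U8, needed for large-subunit RNA) was long enough at 135 nt and had 4 counts in replicate 2 and 3 in replicate 1, below the rule. Snord13, of 104 nt, and the 4 genes of the Snord14 family, of 86 to 90 nt, were at 0. A further 101 genes had a count above 0 in at least 1 library without meeting the rule, and 1397 had none in either library.

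Members just inside the rule were Gm22270 with 14 counts in replicate 2 and 10 in replicate 1, Gm22748 with 10 in replicate 2 and 14 in replicate 1, and Gm25107 with 11 in replicate 2 and 10 in replicate 1. Just outside it were Snora61 with 10.4 counts in replicate 2 and 8.12 in replicate 1, Gm25129 with 12 in replicate 2 and 7 in replicate 1, and Scarna3a with 9 in replicate 2 and 6 in replicate 1.

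The 60 members held 17457 counts in replicate 2 and 18964 in replicate 1, or 0.0557% ± 0.0016 of the counts in genes (SD, n = 2). Their share of the deposited TPM, transcripts per 1000000, was 0.776% ± 0.037 (SD, n = 2), since TPM divides each count by its short effective length. The counts were concentrated in few members: the 15 with the highest mean count held 80.4% ± 1.51 of them (SD, n = 2). Counts of the members correlated between the libraries with a Spearman rho of 0.99 over 60 genes, which share library and quantification.

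ScaRNAs held the largest share of the members' counts. These counts are not divided by length, and median lengths were 265 nt for scaRNAs and 135.5 to 215 nt for the other classes. The 11 scaRNAs were the 10 of that biotype and Scarna10, which is annotated as a snoRNA. Together they held 54.4% of the members' counts in replicate 2 and 51.3% in replicate 1. Scarna2 alone held 18.9% of the members' mean counts and Scarna10 14.9%. The 9 named box H/ACA members held 16.8% in replicate 2 and 19.3% in replicate 1, and the 9 U3 entries 13.5% in replicate 2 and 13.6% in replicate 1. The 5 named box C/D members held 4.04% in replicate 2 and 4.71% in replicate 1, and the 26 members with a number for a name 11.2% in each. The box C/D member Gm22486 carries its class from RefSeq, which names Snord94, a guide for the U6 spliceosomal RNA, at its position.

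**Figure D2:**
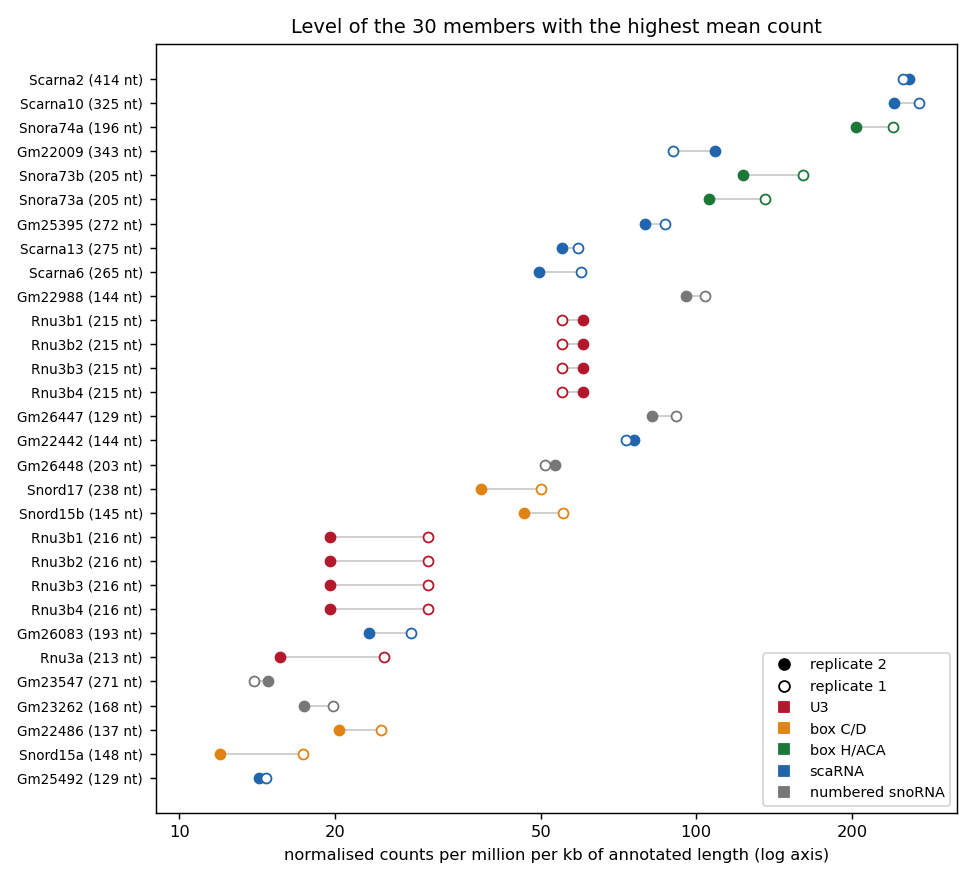
Normalised counts per 1000000 (CPM) per kb of annotated length, on a log axis, of the 30 members with the highest mean count, with filled points for replicate 2 and open points for replicate 1 and colours for the class. Scarna2, Scarna10 and Snora74a stand above 200 in both libraries, and the equal values of the Rnu3b genes are those of identical sequences.

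Levels per length were taken as normalised CPM, counts per 1000000 after TMM scaling, per kb of annotated length. The highest levels were those of Scarna10 with 255 ± 20.6, Scarna2 with 254 ± 4.99 and Snora74a with 222 ± 26.1 (SD, n = 2). Scarna2 is known from human cells as a box C/D guide for the U2 spliceosomal RNA made from its own gene, and Scarna10 as a guide with both kinds of box for the U5 spliceosomal RNA. Snora74a is a box H/ACA guide for ribosomal RNA. Scarna10 and Scarna2 overlapped between the libraries, and Snora74a, at 204 in replicate 2 and 241 in replicate 1, lay below both of them in each library. Next came Snora73b with 142 ± 26.8, Snora73a with 121 ± 20.9, Gm22988 with 99.7 ± 6.03, Gm22009 with 99.5 ± 13.3, Gm26447 with 86.8 ± 6.36, Gm25395 with 83.3 ± 5.45 and Gm22442 with 74.4 ± 1.84 (SD, n = 2). Snora73b lay above Snora73a in each library, at 123 against 106 in replicate 2 and 161 against 136 in replicate 1. Gm22988 and Gm22009 overlapped between the libraries.

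The order of levels depends on which length is used. On the TPM scale, which uses the effective length, Snora74a led with 698 ± 60.9 TPM, followed by Gm26447, of 129 nt, with 580 ± 25.1 TPM, Scarna10 with 571 ± 29.0 TPM and Scarna2 with 520 ± 25.9 TPM (SD, n = 2). The lowest levels per annotated length were 2.41 for Gm22767 and 2.49 for Gm25107, against a median of 13.5 over the members.

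The second deposited quantification gave an estimated count above 0 to 2 of the 60 members only. Scarna2 had 1128 in replicate 2 and 1150 in replicate 1, and Gm22009 had 1 in replicate 2 and 8 in replicate 1. That quantification loses short RNAs, so its counts of 0 are a limit of the method and say nothing about the members' levels.

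The libraries were compared gene by gene. The test was exact, binomial and two-sided on expected counts rounded to whole numbers, with TMM library sizes and Benjamini-Hochberg adjustment over 18887 genes. This test takes counting error alone and compares these 2 libraries, not conditions. A gene was called at an adjusted p under 0.05. Log2 ratios are of normalised CPM plus 0.5, replicate 2 over replicate 1, and their errors are counting SEs. The SEs are of the counts without the added 0.5, so at low counts the ratio is drawn in while its SE is not. Snora44, with a CPM ratio of 0.467, thus has a log2 ratio of -0.545.

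Of the 60 members, 1 was called higher and 11 were called lower in replicate 2. Over all genes tested, 8.88% were called higher and 11.4% lower, 20.3% in either direction. The median log2 ratio of the members was -0.15, against 0.00 over all genes tested, with 18 members above 0 and 42 below. The 12 calls are not 12 independent measurements, since 4 belong to identical U3 sequences. With total counts as library sizes the members gave 2 higher and 10 lower calls, while the split over all genes became 2733 higher and 1145 lower in place of 1678 and 2152. With a spread beyond counting error, in edgeR's exact test at an assumed dispersion of 0.01, 0 members passed the adjusted threshold against 0.964% of all genes, and 5 had an unadjusted p under 0.05. At the common dispersion of both libraries 0 members passed as well, against 1.18% of all genes, and 6 had an unadjusted p under 0.05. That dispersion was estimated from these 2 libraries taken as a single group, so the difference under test is part of it.

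Calls followed depth. Of 26 members with a mean count of 10 to 50, 0 were called. Of all genes tested with a mean count under 50, 6.59% were called in either direction. Genes tested needed 10 counts in only 1 library, so some of these had a mean under 10. Members needed 10 counts in both libraries, so the filters differ at each depth and the shares are not matched. Of 15 members with 50 to 200 counts, 5 were called lower, against 11.8% of genes called in either direction. All 5 were U3 entries, whose reads are divided among copies, and of the other 10 members of that depth 0 were called. Of 19 above 200 counts, 1 was called higher and 6 lower, against 28.5% of genes.

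**Figure D3:**
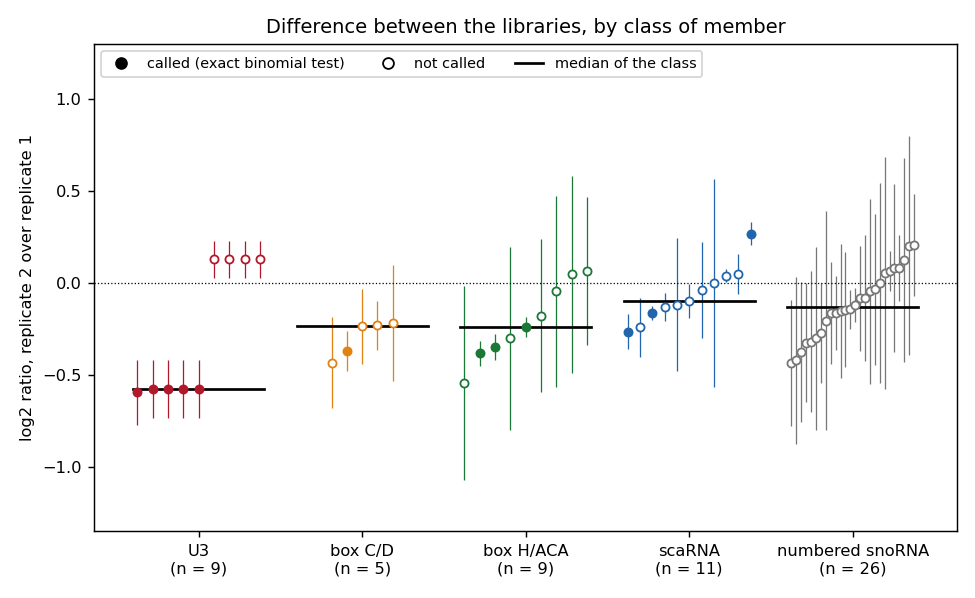
Log2 ratio of replicate 2 over replicate 1 with its counting SE for each member, by class, with filled points for called members and bars for class medians. The class medians lie at -0.57 for U3, -0.23 for box C/D, -0.24 for box H/ACA, -0.10 for scaRNAs and -0.13 for numbered snoRNAs. The 9 U3 points hold 3 distinct values, since identical Rnu3b entries share a value. The summed U3 counts had a log2 ratio of -0.12.

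U3, the RNA of the first cuts in the ribosomal RNA precursor, was split by the annotation into 9 entries at 5 loci. The 4 Rnu3b entries of 215 nt had 424 counts each in replicate 2 and 387 each in replicate 1, and the 4 of 216 nt had 138 each in replicate 2 and 213 each in replicate 1. The equal values are shares of reads that cannot be told apart, and which of the 4 loci was transcribed cannot be read from them. The 4 entries of 216 nt were each called lower in replicate 2 (log2 ratio -0.57 ± 0.16 counting SE, adjusted p = 7.94e-04, exact binomial test), and the 4 of 215 nt were not called (log2 ratio 0.13 ± 0.10, adjusted p = 0.41, exact binomial test).

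These 2 sets of entries differ by the last base alone, and their sums moved in opposite directions. The 215 nt entries together had 1696 counts in replicate 2 and 1546 in replicate 1 (log2 ratio 0.13 ± 0.05 counting SE), and the 216 nt entries 552 in replicate 2 and 854 in replicate 1 (log2 ratio -0.61 ± 0.08). The Rnu3b sum over both lengths was 2248 in replicate 2 and 2400 in replicate 1, a log2 ratio of -0.09 ± 0.04. The authors' posterior SD of the count, the uncertainty from dividing reads, was 20% or more in both libraries for 10 members, the 9 U3 entries and Gm23925, and under 5% for 47. For the 216 nt entries it ran from 74.4% to 78.0% in replicate 2 and from 61.5% to 103% in replicate 1, which is larger than the difference between the libraries. The binomial test does not take that uncertainty in.

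**Figure D4:**
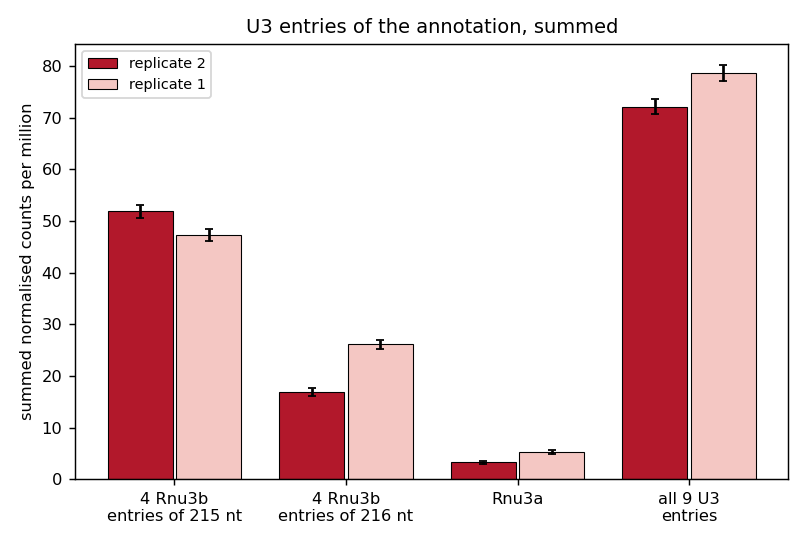
Summed normalised CPM of the U3 entries in replicate 2 (dark) and replicate 1 (light), with counting SEs. The 216 nt entries stand at 16.9 in replicate 2 and 26.1 in replicate 1, the 215 nt entries at 51.9 in replicate 2 and 47.3 in replicate 1, and all 9 entries together at 72.2 in replicate 2 and 78.7 in replicate 1.

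Rnu3a, whose sequence is 85.8% identical to the 215 nt Rnu3b entries, had 109 counts in replicate 2 and 173 in replicate 1. It was called lower in replicate 2 (log2 ratio -0.59 ± 0.18 counting SE, adjusted p = 0.0016, exact binomial test). The posterior SD of its count was 45.1% in replicate 2 and 54.1% in replicate 1. All U3 entries together had 2357 counts in replicate 2 and 2573 in replicate 1, a log2 ratio of -0.12 ± 0.04.

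The Snora73 RNAs, also called U17 and needed for small-subunit ribosomal RNA, were both called lower in replicate 2. Snora73b had 823 counts in replicate 2 and 1078 in replicate 1 (log2 ratio -0.38 ± 0.07 counting SE, adjusted p = 1.27e-07, exact binomial test). Snora73a had 710 counts in replicate 2 and 908 in replicate 1 (log2 ratio -0.35 ± 0.07, adjusted p = 1.54e-05, exact binomial test). Another RNA of the family, Gm26448 in an intron of the ribosomal protein gene Rpsa, is 87.8% identical to Snora73b and had 354 counts in replicate 2 and 338 in replicate 1 (adjusted p = 0.75, exact binomial test). Their host Rcc1 had 243 counts in replicate 2 and 218 in replicate 1 and was not called, and Snhg3 had 124 in replicate 2 and 113 in replicate 1. The ratio of Snora73b to Snora73a was 1.16 in replicate 2 and 1.19 in replicate 1, which differ by less than their counting errors.

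Of the other H/ACA members, Snora74a was called lower, with 1304 counts in replicate 2 and 1542 in replicate 1 (log2 ratio -0.24 ± 0.05 counting SE, adjusted p = 1.38e-04, exact binomial test). The remaining 6 (Snora68, Snora23, Snora21, Snora44, Snora57 and Snora78) had fewer than 50 counts in each library and none was called. Their counting SEs on the log2 scale were 0.40 to 0.54, so a change of the size seen in Snora73a was not detectable at this depth. Snora73a, Snora73b, Snora23, Snora57 and Snora78 overlap a gene on the other strand, and as no label states how strand was used in counting, their counts could hold reads of it.

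Among box C/D members, Snord17 was called lower, with 298 counts in replicate 2 and 390 in replicate 1 (log2 ratio -0.37 ± 0.11 counting SE, adjusted p = 0.0043, exact binomial test). Its host Snx5 had 1379 counts in replicate 2 and 1428 in replicate 1 and was not called. Snord22, made from Snhg1 and known from frog oocytes to be needed for small-subunit RNA, had 38.2 counts in replicate 2 and 47.2 in replicate 1. Snord15b and Snord15a, from the ribosomal protein gene Rps3, had 220 and 58 counts in replicate 2 and 261 and 84 in replicate 1. Snord15b exceeded Snord15a 3.80-fold in replicate 2 and 3.11-fold in replicate 1. As Snord15b lies in or touches an exon of Rps3 and Snord15a lies in an intron, counts of Snord15b could hold reads of the host. Reads of unspliced host RNA could also fall in Snord15a, which was not tested. All 5 box C/D members had a negative log2 ratio, between -0.43 and -0.22, and 1 was called.

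Among scaRNAs, 1 was called higher and 2 lower in replicate 2. Gm22009, of 343 nt in an intron of Kpna4, had 1220 counts in replicate 2 and 1010 in replicate 1 (log2 ratio 0.27 ± 0.06 counting SE, adjusted p = 1.16e-04, exact binomial test). Scarna10, in or touching an exon of Ncapd2, had 2557 counts in replicate 2 and 2869 in replicate 1 (log2 ratio -0.16 ± 0.04, adjusted p = 3.11e-04, exact binomial test). Scarna6, known from human cells as a guide for the U5 spliceosomal RNA, had 429 counts in replicate 2 and 519 in replicate 1 (log2 ratio -0.26 ± 0.09, adjusted p = 0.023, exact binomial test). The call on Scarna6 was lost with total counts or ERCC counts as library sizes, at adjusted p = 0.092 and 0.082 in the exact binomial test.

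The other scaRNAs were not called. Scarna2 had 3485 counts in replicate 2 and 3392 in replicate 1 (log2 ratio 0.04 ± 0.03 counting SE, adjusted p = 0.48, exact binomial test), and it became a higher call with total counts as library sizes, at adjusted p = 0.027 (exact binomial test), or ERCC counts. Gm25395 had 706 counts in replicate 2 and 775 in replicate 1, and Scarna13 had 495 in replicate 2 and 531 in replicate 1. Gm22442 had 356 counts in replicate 2 and 344 in replicate 1, and Gm26083, in Snhg20, had 147 in replicate 2 and 177 in replicate 1. Gm25492 had 60 counts in replicate 2 and 62 in replicate 1, Gm23119 had 30 in replicate 2 and 34 in replicate 1, and Gm22767 had 13 in each. Gm25395 and Scarna6 lie 7346 nt apart in Atg16l1, and Gm25395 exceeded Scarna6 1.65-fold in replicate 2 and 1.49-fold in replicate 1.

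None of the 26 numbered snoRNAs was called. Gm22988 led them with 449 counts in replicate 2 and 489 in replicate 1 (log2 ratio -0.12 ± 0.09 counting SE, adjusted p = 0.42, exact binomial test). Gm26447, in or touching an exon of Eif4a2, followed with 347 counts in replicate 2 and 385 in replicate 1. The family printed above was unequal in level: Gm25291 had 34.2 counts in replicate 2 and 47 in replicate 1, Gm25117 had 34 in replicate 2 and 37 in replicate 1, and Gm24727 had 16 in replicate 2 and 17 in replicate 1. Gm22988 exceeded Gm25835, a gene of the same length with C and D boxes 639 nt away in Eif4a1, 8.80-fold in replicate 2 and 7.53-fold in replicate 1. Gm22988 overlaps an exon of Eif4a1 and Gm25835 lies in an intron, so counts of Gm22988 could hold reads of the host. Reads of unspliced host RNA could also fall in Gm25835, which was not tested.

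What members share beyond the rule was looked at in sequence. The ACA box stood at the 3′ end of 30 of 60 members, against 301 of all 1558 genes (19.3%) and 208 of 799 genes of 126 nt or more that were not members (26.03%). Among the numbered members 18 of 26 had it. The C and D boxes stood in 10 members (16.7%), against 314 of all genes (20.2%) and 1 of the 799. The C/D genes are mostly under the length at which counts were possible, and a missing match says only that these letters were not in the window. At 75% identity or more, 20 members fell into 5 families: U3, Snora73, the 4 genes related to Gm22988, Gm25394 with Gm25989, and Gm25788 with Gm22154.

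By position, 40 members lay in introns of another gene on the same strand and 16 in or touching an exon. The other 4 had no host (Scarna2, Rnu3a, Gm23119 and Snora57). The 16 include members that touch an exon of any host. Snora73a, in an intron of Rcc1, is among them for its overlap with an exon of Snhg3. The 56 hosted members had 44 hosts, of which 36 were protein-coding, 6 were Snhg genes, known as snoRNA host genes, and 5 coded for ribosomal proteins. Reads of a member in an exon also match its host transcript, and their division is the authors'. In total RNA, reads of unspliced host transcripts could also be counted in members in introns. Their share was not tested. Without the 16 exon members there were 1 higher and 8 lower calls and a median log2 ratio of -0.11.

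Levels of members and hosts were unequal. Per kb of length, without use of the effective length, 23 of 55 members with a tested host were above it. The median ratio of member to host was 0.80. Of these 23, 8 were the Rnu3b entries over the single host Tex14, and without them 15 of 47 members were above their host, with a median ratio of 0.44. The ratio was 46.8 for Snora74a over AC121821.1, 37.7 for Snora73b over Rcc1, 33.6 for Scarna10 over Ncapd2 and 23.7 for Scarna13 over Snhg10. It was 0.022 for Gm24119 over Slc25a3. Of these, Snora74a and Scarna10 lie in or touch an exon of the host, so their reads also match its transcript. Snora74a also lies in Gm28285 and Snora73b in Snhg3, and the host with the higher count was used. These ratios depend on which length is used, as TPM divides by the effective length. Gm22442 had a ratio of 0.44 over Chd3 per kb, but 385 TPM against 266 in replicate 2 and 356 against 266 in replicate 1. Gm24119 stayed below Slc25a3, at 7.95 TPM against 283 in replicate 2 and 11.4 against 277 in replicate 1. How many members exceeded their host in TPM was not counted. Tex14, around the Rnu3b loci, had 9 counts in replicate 2 and 10 in replicate 1.

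**Figure D5:**
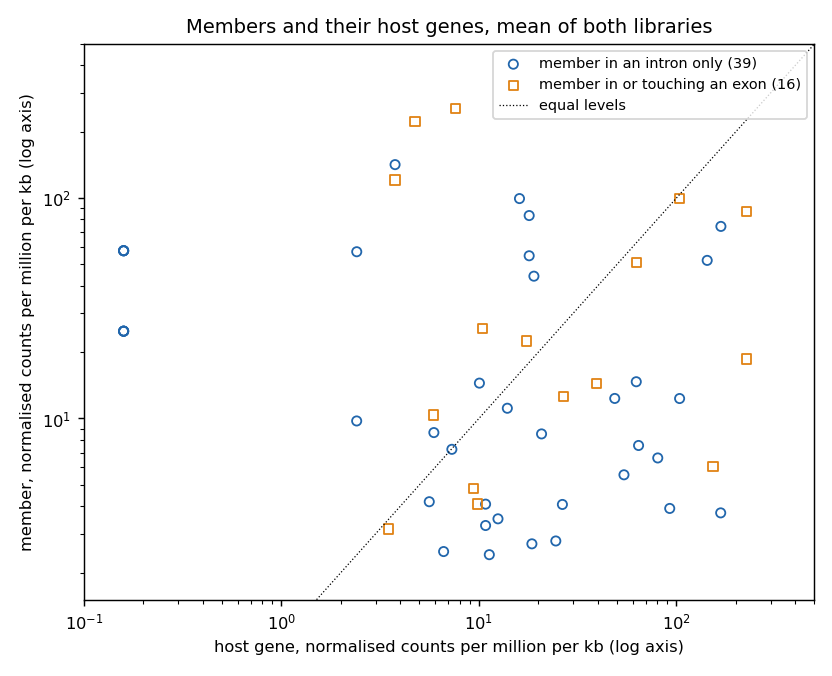
Level of 55 members against that of their host gene, both in normalised CPM per kb on log axes, as the mean of both libraries. Circles mark members in introns only and squares those in or touching an exon of any host. Snora73a is a square for its overlap with an exon of Snhg3, though it is set against Rcc1, in whose intron it lies. On this scale 23 of 55 members lay above the dotted line and exceeded their host, or 15 of 47 without the Rnu3b entries. The scale does not use the effective length. The points at the far left are the Rnu3b entries in Tex14.

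Differences between the libraries were also taken for the hosts. Of 43 hosts tested, 1 was called higher and 7 lower in replicate 2, against 8.88% and 11.4% of all genes tested. The hosts' median log2 ratio was -0.02. The log2 ratio of 38 of 55 members was below that of the host, by a median of 0.15 over all 55, and so was that of 34 of 47 without the Rnu3b entries. Across these 55 members the Spearman rho between member and host log2 ratios was -0.19, a description over genes that share both libraries.

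SnoRNAs and scaRNAs act with proteins that bind, modify, assemble or trim. Of 24 genes for such proteins, all tested, 1 was called higher and 0 lower, against 8.88% and 11.4% of all genes tested. The median log2 ratio of the 24 was 0.07. The called gene was Coil, which codes for coilin, the scaffold of the Cajal body, with 489 counts in replicate 2 and 410 in replicate 1 (log2 ratio 0.25 ± 0.10 counting SE, adjusted p = 0.043, exact binomial test), and edgeR's exact test did not call it. Median levels were 36.0 TPM for the 4 box C/D core proteins, fibrillarin (Fbl) among them, and 22.3 TPM for the 4 box H/ACA core proteins, dyskerin (Dkc1) among them.

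Other small RNAs, chosen by the same rule, are set beside the members. The share of all genes tested was 8.88% called higher and 11.4% called lower. Of 26 snRNA genes 0 were called higher and 10 lower in replicate 2 (median log2 ratio -0.13). Of 14 misc_RNA genes 1 was called higher and 2 lower (median 0.11), and of 4 miRNA genes 0 were called (median 0.24). Whether they differ from the members was not tested.

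Markers of cortical cells were present, with summed levels of 2923 TPM in replicate 2 and 3137 in replicate 1 for 4 genes of excitatory neurons and 206 TPM in each library for 3 of interneurons. Markers of striatum, choroid plexus and blood cells were also above 0 in both libraries, and several lists differed between the libraries in the same exact binomial test. All 8 markers of myelinating oligodendrocytes were lower in replicate 2, with a summed level of 769 TPM in replicate 2 and 1394 in replicate 1, as were all 6 of striatum, with 164 TPM in replicate 2 and 262 in replicate 1. Of 6 choroid plexus markers 5 were higher, with 137 TPM in replicate 2 and 11.9 in replicate 1, and all 3 erythroid markers were higher, with 846 TPM in replicate 2 and 550 in replicate 1. Of 4 excitatory neuron markers 3 were lower. Of 3 astrocyte markers 1 was higher and 2 were lower, and of 3 interneuron markers 0 were called. In edgeR's exact test at a dispersion of 0.01, 8 of 8 oligodendrocyte, 3 of 6 striatum and 3 of 6 choroid plexus markers were called, and 0 of the erythroid, excitatory neuron, astrocyte and interneuron markers. Their part in the members' differences was not tested, and in bulk tissue fewer cells of a type and less RNA per cell cannot be told apart.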

How the data were processed

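Total RNA of the left cerebral cortex was sequenced in 2 libraries of 1 group. The authors deposited a gene table per library, quantified from a transcriptome alignment on mm10 with GENCODE M21, with tools not given in the sources used here, per the deposited text files. The expected counts are estimated reads per gene, not normalised, with reads of several matches divided among genes, per the file headers. TPM was scaled by the authors to 1000000 over all rows, spike-ins included. Estimated counts of a second deposited transcript table were used for 1 check. Rows that name no gene (26248 numbered and 96 ERCC) were left out of totals.

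Symbols, biotypes, hosts and sequences came from GENCODE M21. Library sizes were scaled by TMM in edgeR 4.0.16 (R 4.3.3) on counts rounded to whole numbers. With 2 libraries of 1 group no replicated test exists, so libraries were compared by a two-sided exact binomial test (scipy 1.17.1). It covered the 18887 genes that reached 10 counts in a library, with Benjamini-Hochberg adjustment. It was checked on data simulated with counting error alone, so the check does not cover a spread beyond that error. Alternatives were DESeq2 1.42.0 size factors, total and ERCC counts, and edgeR's exact test with a dispersion of 0.01 or the common one. A count of 0 allows up to 3 counts. Intervals and SEs cover counting error only, and replicates of the labels may differ in ways the counts do not show.

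Where an overlapping gene is called a host, it lies on the same strand and is the one with the highest count. Identity is over global alignments. Members named are the 15 with the highest count, the 10 with the highest level per length, every scaRNA, processing and imprinted snoRNAs, called members of 50 counts or more, and those nearest the rule; others are named as relatives, class or host neighbours of these, chosen after their values were seen. The members and all lists were chosen with earlier results of these data known.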

Additional observations from a re-analysis of the deposited data

How the results depend on the processing

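The number of members was 65 and 46 at a minimum of 5 and 20 counts in place of 10, and 61 to 62 when either library alone had to pass. Their share of counts was 0.0545% to 0.0568% in the single libraries and 0.0599% without mitochondrial genes. Higher calls numbered 2 in place of 1 with total counts, with ERCC counts and with identical sequences summed, and 0 in edgeR's exact test at either dispersion. Lower calls numbered 11 with TMM or DESeq2 library sizes, 10 with total or ERCC counts, 8 with identical sequences summed, 0 in edgeR's exact test at either dispersion, 8 among members in introns or with no host and 6 without the U3 genes. Leaving out exon members or U3 genes was chosen after seeing the data, also for the levels over hosts. Summing identical sequences made the 215 nt Rnu3b entries the added higher call. The members' median log2 ratio stayed between -0.17 and -0.10 under the 9 alternatives tried, and class medians kept their sign. DESeq2 size factors kept all 12 calls, and total and ERCC counts kept 11 each.

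Depth limits the lower members: the median counting SE of a member's log2 ratio was 0.27. No paired analysis was possible because the libraries form 1 group. The difference between libraries could not be computed without a replicate.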
